A study of Mus musculus with 6 samples.

Results

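The 7 genes described here are S100a8, S100a9, Camp, Ngp, Ltf, Lcn2 and Retnlg, a set of transcripts that mark maturing and mature neutrophils. They are 7 of the 23538 genes in the deposited tables, and all 7 were found by symbol. They were chosen by their levels in these same libraries, so their levels by library and population are given as a description, with no test. The study sorted mouse bone marrow by flow cytometry, 15 cells per sort, and profiled the cells by CEL-Seq2, a method that barcodes each library and reads the 3′ end of its transcripts. LSK cells lack lineage markers and carry Sca-1 and cKit. Haematopoietic stem cells (HSC) were LSK cells with CD150 and without CD34, Flt3 or CD48. The multipotent progenitors were LSK cells with CD34 and CD48. Of these, MPP2 carried CD150 and not Flt3, MPP3 carried neither, and MPP4 carried Flt3 and not CD150. The last 2 gates held cKit-bearing cells without lineage markers, Sca-1 or IL7r: the common myeloid progenitors (CMP) had CD34 and low CD16/32, and the progenitors of megakaryocytes and erythroid cells (MEP) had neither. No gate selected neutrophils. There were 3 wild-type and 3 Mof -/+ libraries of every population, 36 libraries in 12 groups. Mof -/+ cells carry 1 intact copy of Mof (gene symbol Kat8), which encodes a histone H4 lysine acetyltransferase. Age and strain background are not given in the labels, and nothing in them ties the replicates to different mice. The p-values therefore reflect variation between these libraries alone, and part of it may be technical. The libraries were deposited as 6 samples. Each sample held 1 genotype and either HSC, the 3 MPP populations, or CMP and MEP. Genotype and sample therefore cannot be told apart, and neither can sample and these sets of populations.

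Neutrophils arm themselves in stages as they mature in the bone marrow. Promyelocytes fill primary granules with myeloperoxidase and serine proteases, myelocytes then make the proteins of the secondary granules, and late stages add gelatinase granules and large amounts of cytosolic S100 proteins. S100a8 and S100a9 pair to form calprotectin, which binds zinc, manganese and calcium and acts as an alarm signal through Tlr4. Camp encodes the cathelicidin precursor, an antimicrobial peptide. Ngp encodes neutrophilic granule protein, a cathelicidin-related secondary granule protein. Ltf encodes lactoferrin, which binds iron, and Lcn2 encodes lipocalin 2, which withholds iron from bacteria by binding their siderophores. Retnlg encodes resistin-like gamma, a secreted protein of late neutrophils. Factors of the C/EBP family, with C/EBP epsilon at the secondary granule stage, are known to drive granule genes.

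Of the 7 genes, 5 lie in a pair of chromosomal neighbourhoods. In GENCODE M21 on GRCm38 (mm10), S100a8 occupies chr3:90668978-90670035 on the plus strand and S100a9 chr3:90692632-90695721 on the minus strand, with a gap of 22.6 kb and 0 protein-coding genes between them. Camp (chr9:109847379-109849617, minus strand), Ngp (chr9:110419747-110423012, plus strand) and Ltf (chr9:111019271-111042767, plus strand) follow each other on chromosome 9. The gap from Camp to Ngp is 570.1 kb and holds 8 protein-coding genes, and the gap from Ngp to Ltf is 596 kb and holds 20. Lcn2 (chr2:32384633-32388252, minus strand) and Retnlg (chr16:48872621-48874496, plus strand) stand on chromosomes of their own. No other annotated gene overlaps any of the 7.

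The promoters are shown because the 7 genes moved together between libraries, and the capitals mark matches to a C/EBP motif. The motif searched was TTGCNNAA or its reverse complement TTNNGCAA, in the 250 bases upstream of the RefSeq start of each gene (GRCm38.p6), and RefSeq starts can differ from those of GENCODE. All 7 genes had an entry. The Lcn2 window, with its match, lies wholly inside the GENCODE span of Lcn2 given above. The windows of S100a8, Camp, Ngp and Ltf overlap their GENCODE spans in part. The 5 with a match, printed 5′ to 3′ on the strand of the gene, were those of S100a9 (minus strand), Ngp (plus), Ltf (plus), Lcn2 (minus) and Retnlg (plus):
S100a9 chr3:90695722-90695971: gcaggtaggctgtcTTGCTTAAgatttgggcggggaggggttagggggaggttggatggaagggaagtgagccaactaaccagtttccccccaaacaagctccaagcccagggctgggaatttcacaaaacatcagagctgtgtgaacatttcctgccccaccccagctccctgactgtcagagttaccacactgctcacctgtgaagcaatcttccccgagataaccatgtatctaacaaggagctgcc
Ngp chr9:110419558-110419807: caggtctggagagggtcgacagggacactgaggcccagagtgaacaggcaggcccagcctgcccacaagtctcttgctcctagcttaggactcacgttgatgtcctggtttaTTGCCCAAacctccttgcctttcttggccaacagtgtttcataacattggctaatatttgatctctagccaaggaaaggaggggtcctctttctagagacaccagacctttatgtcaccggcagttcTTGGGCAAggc
Ltf chr9:111019042-111019291: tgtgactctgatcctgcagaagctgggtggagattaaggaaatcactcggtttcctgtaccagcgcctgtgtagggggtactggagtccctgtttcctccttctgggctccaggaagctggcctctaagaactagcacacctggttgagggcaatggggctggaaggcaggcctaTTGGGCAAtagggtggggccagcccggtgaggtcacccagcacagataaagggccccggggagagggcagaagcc
Lcn2 chr2:32387740-32387989: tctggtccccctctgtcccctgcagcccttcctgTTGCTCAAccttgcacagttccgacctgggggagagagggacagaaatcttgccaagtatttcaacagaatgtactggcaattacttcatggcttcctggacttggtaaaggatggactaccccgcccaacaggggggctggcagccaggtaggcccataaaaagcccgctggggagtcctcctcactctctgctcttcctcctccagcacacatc
Retnlg chr16:48872358-48872607: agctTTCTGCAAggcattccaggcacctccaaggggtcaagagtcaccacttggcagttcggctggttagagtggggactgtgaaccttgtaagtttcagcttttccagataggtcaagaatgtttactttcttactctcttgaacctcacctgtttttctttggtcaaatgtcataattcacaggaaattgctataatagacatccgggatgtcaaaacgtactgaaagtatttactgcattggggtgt
Counted from the start site, with -1 as the base before it, matches began at -236 in S100a9, at -138 and -11 in Ngp, at -75 in Ltf, at -216 in Lcn2 and at -246 in Retnlg. Over all 32817 RefSeq promoter windows of this length, 9.57% held the motif. The full palindrome TTGCGCAA was in 0 of the 7 and in 0.165% of all windows. A PU.1 motif (AGGAAGT or ACTTCCT) was in 1 of the 7, S100a8, at -172, against 7.69% of all windows. TATAAA or TTTATA was in 1 of the 7, again S100a8, at -30, against 12.4%. A GATA motif (AGATAA or TTATCT) was in 2 of the 7, S100a9 and Ltf, at -30 and -32, against 9.99%. None of these motifs was found in the window of Camp. These are matches of letters and no binding was measured.

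**Figure D1:**
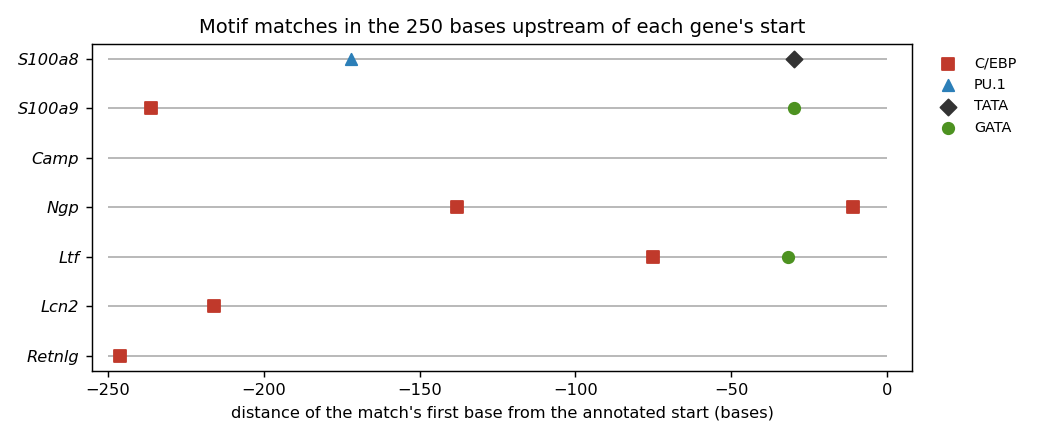
Motif matches upstream of the 7 genes. Each line is 1 gene, the x axis is the distance in bases of the first base of a match from the annotated start, and the symbols stand for the C/EBP, PU.1, TATA and GATA motifs. Matches to the C/EBP motif appear in 5 of the 7 windows, from -246 to -11.

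Library totals ran from 1577 to 123765 counts, with a median of 41227, and the wild-type median (32782.5) was lower than the heterozygous one (60194). In 6 libraries the total was under 15000: heterozygous HSC replicate 2 (1577), wild-type MPP3 replicates 2 and 1 (2764 and 7304) and the 3 wild-type MPP2 libraries (10331 to 12339). Levels below are counts per 1000000 counts of all genes in the library (CPM). Because the method counts 3′ ends, a count does not scale with transcript length. Each count in heterozygous HSC replicate 2 equalled 634 CPM. Intervals and limits on 0 reflect counting error alone. Kat8, the targeted gene, was too rare to check the genotype labels, with 12 counts in 7 of the 18 wild-type libraries and 11 counts in 9 of the 18 heterozygous ones. A pair of libraries stood against their labels. Wild-type MPP4 replicate 3 held 0 counts of the MPP4 markers Flt3, Dntt and Il7r, which allows up to 166 CPM, against summed levels of 3786 and 1468 CPM in replicates 1 and 2. Wild-type HSC replicate 3 held 65.4 CPM of the 6 HSC markers, against 1788 and 1282 CPM in replicates 1 and 2. The MEP markers Gata1, Klf1, Car1 and Epor summed to between 1629 and 2891 CPM in the 6 MEP libraries. Kit, whose protein all 6 gates required, had 0 counts in 5 libraries: wild-type MPP4 replicate 3, wild-type MPP2 replicate 3, wild-type MPP3 replicates 1 and 2, and heterozygous HSC replicate 2. These 0s allow up to 166, 266, 411, 1085 and 1902 CPM, in that order. The bounds from 411 CPM up lie above Kit's median of 307 CPM over all libraries, so those 0s say little.

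The 7 genes were abundant in a minority of libraries and much lower in the rest. Their summed level was 4703 CPM or higher in 9 of the 36 libraries and 1902 CPM or lower in the other 27. The 9 were wild-type MPP4 replicate 3 (32982 CPM), wild-type MEP replicates 2 and 3 (31289 and 11028), heterozygous MEP replicate 3 (27630.2), the 3 wild-type MPP3 libraries (19168, 4703 and 12573), wild-type MPP2 replicate 1 (18585) and wild-type CMP replicate 2 (5968). Between these and the lowest libraries stood heterozygous HSC replicate 2 (1902 CPM, on 3 counts), heterozygous MPP3 replicates 2 and 1 (1401 and 1276 CPM, on 112 and 75 counts) and wild-type CMP replicate 1 (1023 CPM, on 57 counts). The 9 high libraries held 6302 of the 6720 counts of the 7 genes, or 93.8%. Wild-type libraries made up 8 of the 9. In 5 libraries no count of any of the 7 was found: wild-type HSC replicates 1 and 2, heterozygous MPP2 replicate 2 and heterozygous MPP4 replicates 2 and 3. A count of 0 allowed a summed level of up to 103 and 85.5 CPM in the HSC libraries, 156 CPM in the MPP2 library and 53.8 and 73.2 CPM in the MPP4 libraries. In libraries of 15 cells, more cells of a type and more RNA per cell cannot be told apart.

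**Figure D2:**
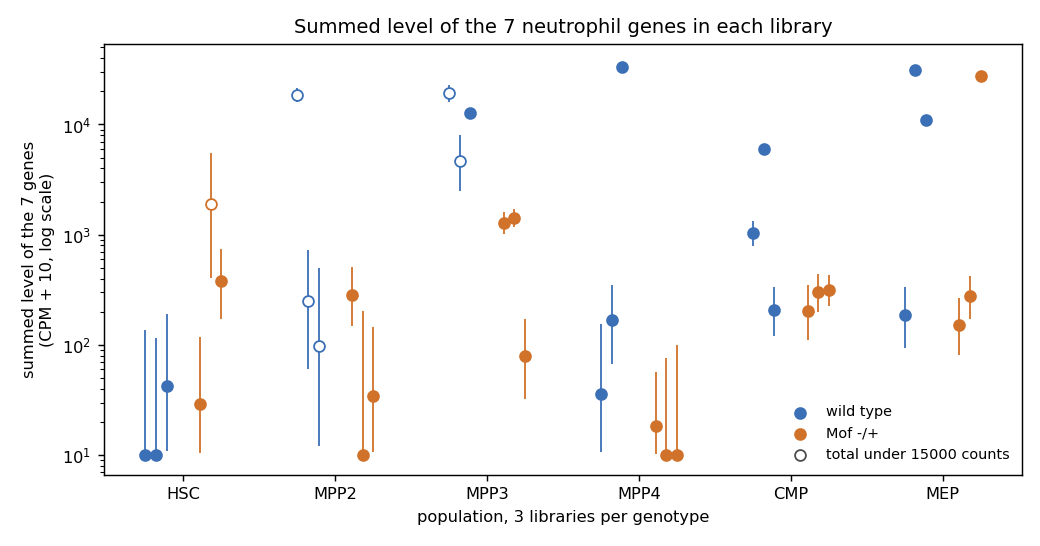
Summed level of the 7 genes in each of the 36 libraries. The y axis is CPM plus 10 on a log scale, the x axis is the population, points are single libraries coloured by genotype, bars are exact 95% counting intervals and open points are the 6 libraries with totals under 15000. The 9 libraries at 4703 CPM or above include all 3 wild-type MPP3 libraries and 1 heterozygous library, in MEP.

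The spread between replicates was as large as the differences between neighbouring populations. In the wild type the summed level averaged 14165 ± 15792 CPM in MEP, 12148 ± 7241 in MPP3, 11055 ± 18990 in MPP4, 6306 ± 10635 in MPP2, 2396 ± 3121 in CMP and 10.9 ± 18.9 in HSC (SD, n = 3 each). Every neighbouring pair in that order differed by less than the larger of its SDs, and CMP and HSC alone had ranges that did not overlap. Wild-type MPP3 was the only group in which all 3 libraries were high, and its lowest library rested on 13 counts. Without replicate 2 the wild-type MEP mean was 5602 CPM, without replicate 3 the wild-type MPP4 mean was 91.7 CPM, without replicate 1 the wild-type MPP2 mean was 166 CPM, and without replicate 2 the wild-type CMP mean was 609.8 CPM. In Mof -/+ cells the order was MEP (9346 ± 15834 CPM), MPP3 (916 ± 735), HSC (765 ± 1001), CMP (264 ± 60.9), MPP2 (100.3 ± 153) and MPP4 (2.81 ± 4.87), again SD with n = 3. Here CMP and MPP2 differed by 164 CPM, more than the larger SD, but their libraries overlapped, and the other neighbours differed by less than the larger SD. Without replicate 3 the heterozygous MEP mean was 204 CPM. The HSC mean rested on 12 counts, and was 196 CPM without replicate 2, the library of 1577 counts.

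**Figure D3:**
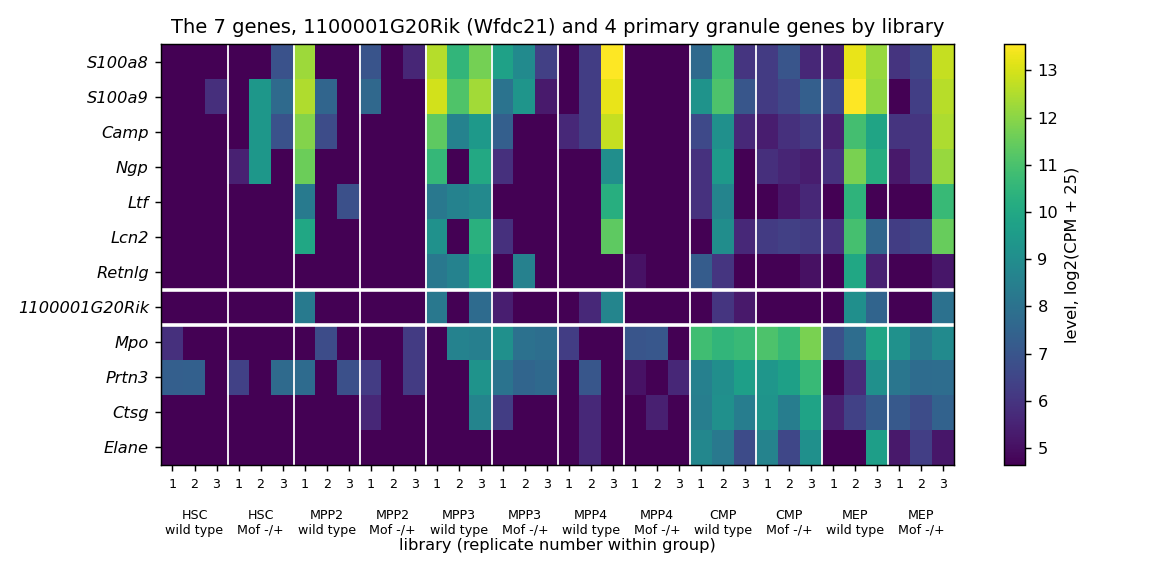
Levels of the 7 genes, of 1100001G20Rik (Wfdc21) and of 4 primary granule genes in each library. Rows are genes, columns are the 36 libraries by population and genotype, and colour is log2(CPM + 25). The 7 genes are bright in the same few columns, such as wild-type MPP4 replicate 3 (32982 CPM in sum), while Mpo and Prtn3 are brightest in CMP.

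S100a9, the larger subunit of calprotectin, was counted in 25 libraries and S100a8 in 24. In wild-type MPP3, S100a9 stood at 7941, 2171 and 5039 CPM and S100a8 at 6024, 1447 and 3263 CPM in replicates 1, 2 and 3. In heterozygous MPP3, S100a9 stood at 238, 600.5 and 14.0 CPM and S100a8 at 834, 450.4 and 55.9 CPM. In CPM neither gene overlapped between the genotypes of MPP3, as for 1.8% of all genes with the wild type higher. With the heterozygotes higher, 1394 of 6444 genes did not overlap, against 116 with the wild type higher. The lowest wild-type levels rested on 6 counts of S100a9 and 4 of S100a8. For S100a8 the gap is within counting error (394 to 3701 CPM in that library). On the scale of the deposited values S100a8 did overlap, and S100a9 did not, as for 1.18% of all genes. In MEP the 2 genes split the replicates instead. Wild-type MEP held 70.4, 11887 and 4161 CPM of S100a9 and 17.6, 9773 and 4620.3 CPM of S100a8. Heterozygous MEP held 0, 53.3 and 6144 CPM of S100a9 and 38.9, 66.6 and 6908 CPM of S100a8. The single high heterozygous library lay between the 2 high wild-type libraries for both genes, so the genotypes overlapped.

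In wild-type MPP4 replicate 3, S100a8 reached 12029 CPM and S100a9 9812 CPM. The other 5 MPP4 libraries were low: S100a8 was at 52.4 CPM in wild-type replicate 2 and 0 in the other 4, and the same held for S100a9. In wild-type MPP2 replicate 1, S100a8 was at 4839.8 and S100a9 at 5711 CPM, while replicates 2 and 3 had 0 counts of S100a8 and 162 and 0 CPM of S100a9. The 3 heterozygous MPP2 libraries held 101, 0 and 24.1 CPM of S100a8 and 176, 0 and 0 CPM of S100a9. A single library thus set the wild-type level in both populations. In CMP, S100a9 was at 574, 2112 and 105 CPM in the wild type and at 48.7, 67.3 and 137 CPM in the heterozygotes, and the genotypes overlapped. S100a8 in CMP was at 179.5, 1756 and 39.3 CPM and at 48.7, 101 and 24.2 CPM. In HSC the pair was nearly absent from the wild type, whose libraries held 1 count of S100a9 in sum and none of S100a8. Heterozygous replicate 2 held 1 count of S100a9. Heterozygous replicate 3 held 4 counts of S100a9 (186 CPM) and 2 of S100a8 (93.2 CPM).

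Where they were high, the S100 genes ranked among the most counted genes of the whole library. Ranked by count among 23538 genes, S100a9 took place 2 in wild-type MEP replicate 2, with 416 counts, and S100a8 place 4 there, with 342. In wild-type MPP4 replicate 3, S100a8 took place 4 and S100a9 place 6. In heterozygous MEP replicate 3, S100a8, S100a9 and Camp took places 6, 7 and 8. Even the shallow wild-type MPP2 replicate 1 and MPP3 replicate 1 had S100a9 in places 6 and 5.

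Of the 4 granule genes, Camp was the most widely counted (23 libraries), followed by Ngp (18), Lcn2 (16) and Ltf (12). Camp peaked in wild-type MPP4 replicate 3, at 6929 CPM, against 26.1 and 52.4 CPM in replicates 1 and 2 and 0 in the 3 heterozygous MPP4 libraries. Heterozygous MEP replicate 3 followed with 5551 CPM of Camp, where replicates 1 and 2 held 38.9 and 39.9 CPM and the wild-type libraries held 17.6, 1886 and 899 CPM. Camp was thus low in 3 of 6 MEP libraries and high in the others, with both genotypes on both sides. In MPP3, Camp was at 2601, 362 and 672 CPM in the wild type and at 136, 0 and 0 CPM in the heterozygotes. Wild-type MPP2 replicate 1 held 3775 CPM and wild-type CMP replicate 2 held 528 CPM of Camp. The remaining HSC, MPP2 and CMP libraries held at most 93.2 CPM, apart from the single Camp count in heterozygous HSC replicate 2.

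Ngp was highest in heterozygous MEP replicate 3 (4594 CPM), wild-type MEP replicate 2 (3486 CPM) and wild-type MPP2 replicate 1 (3001 CPM). Wild-type MPP3 held 1506, 0 and 1008 CPM of Ngp, and wild-type MEP replicate 3 held 1162 CPM. In wild-type MPP4 replicate 3, where Camp was at its peak, Ngp reached only 499 CPM, on 9 counts. Ngp and Camp therefore did not keep 1 ratio: their counts were 9 and 125 there, against 122 and 66 in wild-type MEP replicate 2.

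Lactoferrin and lipocalin 2 transcripts were lower in counts and more restricted. Ltf was highest in heterozygous MEP replicate 3 (1596 CPM), wild-type MEP replicate 2 (1372 CPM) and wild-type MPP4 replicate 3 (1164 CPM). The 3 wild-type MPP3 libraries held 274, 362 and 432 CPM of Ltf, on 2, 1 and 9 counts, and the heterozygous ones 0. In wild-type MEP replicate 3 Ltf had 0 counts, which allows up to 29.3 CPM, while Camp stood at 899 CPM and Ngp at 1162 CPM in that library. Lcn2 was at 2827 CPM in heterozygous MEP replicate 3, 2549.9 in wild-type MPP4 replicate 3 and 1915 in wild-type MEP replicate 2. It stood at 548, 0 and 1248 CPM in wild-type MPP3 and at 34.0, 0 and 0 CPM in heterozygous MPP3. All 3 heterozygous CMP libraries held a low level of Lcn2, from 48.5 to 56.1 CPM, on 3, 5 and 6 counts.

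Retnlg was the rarest of the 7, with 99 counts in 11 libraries. It stood at 972 CPM in wild-type MEP replicate 2 and at 274, 362 and 912 CPM in wild-type MPP3, and at 350.3 CPM in heterozygous MPP3 replicate 2. The other 2 heterozygous MPP3 libraries had 0 counts. In wild-type CMP it was at 125.7, 39.6 and 0 CPM. Retnlg had 0 counts in 3 libraries in which the other 6 genes were all counted, wild-type MPP2 replicate 1 (up to 290.4 CPM allowed), wild-type MPP4 replicate 3 (up to 166 CPM allowed) and heterozygous CMP replicate 2 (up to 33.7 CPM allowed), and 1 count (11.4 CPM) in heterozygous MEP replicate 3. Its pattern thus differed from that of the granule genes in wild-type MPP4 replicate 3 and heterozygous MEP replicate 3. In wild-type MEP replicate 2 both Retnlg and the granule genes were high.

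The make-up of the 7 genes' counts varied between libraries by more than the exact counting intervals. Those intervals take each count as a separate molecule, and collapse of molecular identifiers is not given, so they may be too narrow. Among the 11 libraries with at least 50 such counts, S100a8 and S100a9 together took 47.2 to 84.0% (median 69.2%) and the 4 granule genes 0 to 52.7% (median 26.7%). Heterozygous MEP replicate 3 was the library richest in granule transcripts, at 52.7% of 2424 counts (exact 95% interval 50.7 to 54.7%). Wild-type MEP replicate 3, from the same gate, had 20.2% of 1129 counts (17.9 to 22.7%). Heterozygous MPP3 replicate 2 had none of its 112 counts in the granule genes, which allows a share of up to 2.68%, and 25.0% in Retnlg (17.3 to 34.1%). Retnlg took 0.0413% of the counts in heterozygous MEP replicate 3 (0.00104 to 0.23%) and 0 of 595 in wild-type MPP4 replicate 3, which allows up to 0.504%. The partners of calprotectin also shifted. S100a8 was 23.8% of the pair in wild-type CMP replicate 1 (12.1 to 39.5%), 77.8% in heterozygous MPP3 replicate 1 (65.5 to 87.3%) and 45.4% at the median.

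**Figure D4:**
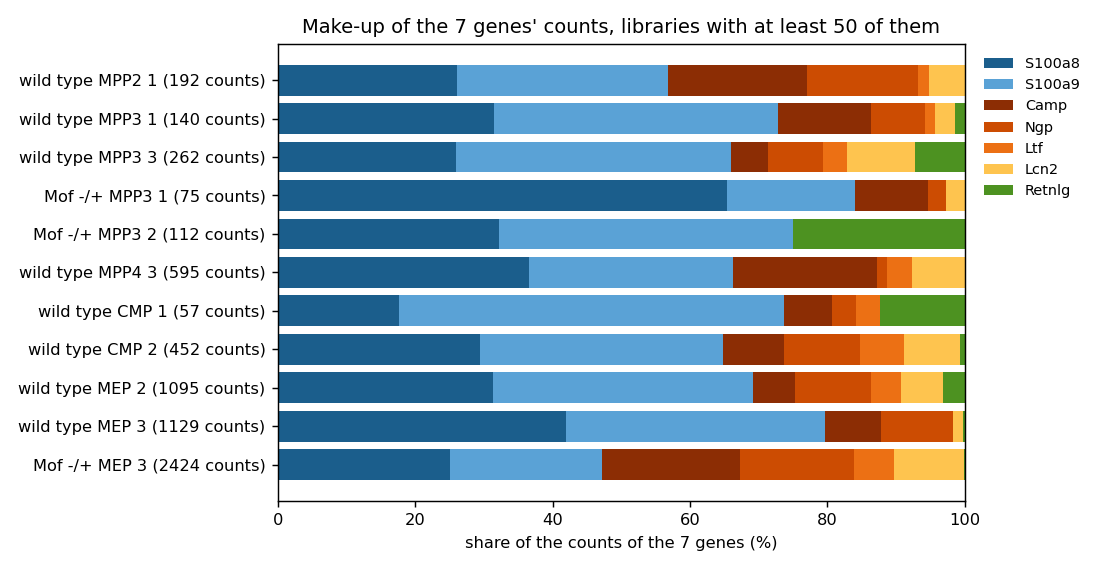
Make-up of the counts of the 7 genes in the 11 libraries with at least 50 of them. Bars show each gene's share in percent, in blue for the S100 pair, in red to yellow for Camp, Ngp, Ltf and Lcn2, and in green for Retnlg. Heterozygous MEP replicate 3 has 52.7% in the 4 granule genes and heterozygous MPP3 replicate 2 has none.

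The 7 genes followed each other across libraries. Over the 30 libraries with at least 15000 counts, Pearson's r of log2(CPM + 25) ran from 0.39 to 0.96 over the 21 pairs (median 0.87) and Spearman's rho from 0.39 to 0.92 (median 0.69). These are descriptions: the points share deposited samples, differ in depth, and were the basis on which the genes were chosen. S100a8 and S100a9, chromosomal neighbours, gave r = 0.96, and Ngp and Lcn2, on different chromosomes, 0.93. The lowest was Camp with Retnlg, at 0.39. Within groups, the spread between the 3 libraries of the log2(value + 1) of S100a8 was the largest of the 6444 genes tested (residual SD 2.66), followed by S100a9 (2.60). The moderated SDs on which limma's tests of these genes rest were smaller, 1.80 and 1.76. Ngp, Camp, Lcn2 and Ltf took places 5, 6, 8 and 10 and Retnlg place 75, against a median SD of 0.75 over all genes. These places too are a description, because the genes were chosen by their levels in these libraries.

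The genes whose levels were most like the sum of the 7, by Pearson's r over the same 30 libraries and among 5307 genes with at least 60 counts, included further neutrophil genes. The first was 1100001G20Rik (Wfdc21, r = 0.86), a small secreted protein gene of neutrophils. It had 18 and 16 counts in wild-type MEP replicates 2 and 3, 20 in heterozygous MEP replicate 3, 7 in wild-type MPP4 replicate 3, and at most 4 in any other library. Then came Hk3 (0.74), a hexokinase of myeloid cells, Anxa1 (0.72), encoding annexin A1, and Hdc (0.70), which makes histamine. Adpgk (0.67), G6pdx (0.61) and Aldoa (0.59) encode enzymes of glucose metabolism. S100a11 (0.64), Zfp874b (0.61) and Arrb2 (0.61) completed the 10. With all 36 libraries 6 of these 10 remained among the first 10, and with Spearman's rho 7. The values below the first are modest, and nothing about shared control follows from them.

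Of a wider list of 26 neutrophil genes, 25 were in the tables and 22 had counts. Ly6g was not found by symbol, and Stfa1, BC100530 and Olfm4 were listed with 0 counts. The summed level of the list ran from 313 to 5203 CPM, with a median of 1025 CPM, and was highest in wild-type MPP3 replicate 1 (5203), wild-type MPP4 replicate 3 (5155), wild-type MEP replicate 2 (4543) and heterozygous MEP replicate 3 (3784). The most counted members of the list were also present where the 7 genes were not. Cxcr2, a chemokine receptor, had counts in 35 of 36 libraries. Lyz2, lysozyme of macrophages and neutrophils, had 58 counts in heterozygous MPP2 replicate 1, with 11 counts of the 7 genes. Heterozygous MPP4 replicate 3 held 55 counts of Lyz2 and 35 of Chi3l3 (Chil3, a chitinase-like protein) with 0 of the 7. Chi3l3 was highest in heterozygous MEP replicate 3, with 159 counts.

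Some genes of earlier and later neutrophil stages differed in counts among the 3 high MEP libraries (Fcnb, Cebpe, Mmp8 and Mmp9 were picked out after their values were seen, so their counts are a description). Wild-type MEP replicate 3 held 80 counts of Elane, the neutrophil elastase of primary granules, 13 of Fcnb, a ficolin, and 2 of Cebpe (C/EBP epsilon), with 0 of the late metalloproteinases Mmp8 and Mmp9. Wild-type MEP replicate 2 held 22 counts of Mmp8, 18 of Mmp9 and 34 of Retnlg, and 0 of Elane, Fcnb and Cebpe. A 0 there allows up to 85.7 CPM. Cebpe stood at 19.5 CPM in wild-type MEP replicate 3 and 79.8 CPM in heterozygous MEP replicate 3, so no difference in Cebpe can be seen. Heterozygous MEP replicate 3 held 1 count of Elane, 2 of Fcnb, 7 of Cebpe, and 0 of Mmp8 and Mmp9. Not every gene of the wider neutrophil list split as Mmp8 and Mmp9 did. Hp had 15 counts in wild-type MEP replicate 3, 1 in wild-type MEP replicate 2 and 16 in heterozygous MEP replicate 3. Among these libraries Il1r2 had counts in wild-type MEP replicate 3 alone, with 3. The other primary granule genes did not all go with Elane: Mpo had 40 counts, Prtn3 18 and Ctsg 13 in heterozygous MEP replicate 3, against 94, 54 and 13 in wild-type MEP replicate 3 and 7, 1 and 2 in wild-type MEP replicate 2.

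Primary granule genes did not follow the 7 genes across populations. Of 9 such genes 8 were found, and Mpo, Prtn3, Ctsg and Elane had the most counts. Their summed level was highest in CMP, from 2839 to 6722 CPM, and peaked in heterozygous CMP replicate 3, where the 7 genes summed to 307 CPM. It was 371 CPM in wild-type MEP replicate 2, 2618 CPM in wild-type MEP replicate 3 and 0 in wild-type MPP4 replicate 3. Transcription factors of the granule genes were low throughout. Cebpb had 109 counts, Sfpi1 (PU.1) 108, Cebpa 72 and Gfi1 35 over the 36 libraries, and Cebpe had 24 in 6 libraries, all of them CMP or MEP. The 6 genes for receptors of the 7 proteins had a median summed level of 37.8 CPM. Lcn2's receptor Slc22a17 had 22 counts, the scavenger receptor Lrp1, which binds lactoferrin, 21, and Tlr4 14. Fpr2, the receptor of the cathelicidin peptide, also had 14. The other 6 S100 genes were spread more evenly, with S100a10 in 34 and S100a11 in 33 of the 36 libraries.

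Markers of other cell types were also present in some of the 9 high libraries, and their part in the result was not tested. The 9 B and plasma cell genes found (of 11) summed to 7705 CPM in wild-type MPP4 replicate 3 and 6258 CPM in wild-type MEP replicate 2, but also to 7879.6 CPM in wild-type MPP2 replicate 3, which had 1 count of the 7 genes. In heterozygous MEP replicate 3 they summed to 228 CPM. The 11 late erythroid genes found reached 151608 CPM in wild-type MPP4 replicate 3, mostly Beta-s (adult beta globin), and 111434 CPM in heterozygous MPP4 replicate 3, where the 7 genes were at 0. They stood at 772 and 1094 CPM in wild-type MEP replicate 2 and heterozygous MEP replicate 3. The 15 monocyte and macrophage genes, with Irf8 and Ly6c2 the most counted, summed to 8215 CPM in wild-type MPP3 replicate 1 and to 7525 CPM in wild-type MPP2 replicate 3. The 7 T and NK cell genes found (of 10) reached at most 998 CPM, in wild-type MPP4 replicate 3. Of the 6 eosinophil, basophil and mast cell genes, the eosinophil markers Prg2 and Epx had 0 counts, and the list peaked in wild-type CMP replicate 2, at 1294 CPM. Across the 9 high libraries the erythroid sum ran from 238 to 151608 CPM and the B cell sum from 79.2 to 7705 CPM.

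The comparison of Mof -/+ with wild-type cells asks whether these genes differ where 1 copy of Mof is lost. Levels were mostly lower in the heterozygous libraries, but none of the 7 genes passed the test in any comparison. In limma's test on log2(value + 1), adjusted over 6444 genes, 0 of the 7 were called in HSC (0.0155% of all genes called), MPP2 (0.0776%), MPP3 (0.31%), MPP4 (0.031%), CMP (0.031%) or MEP (0.031%). The same held for the average over the 6 populations (0.0776%) and for the interaction of genotype with population (0.031%). The quasi-likelihood test of edgeR, run on the recovered counts of 1633 genes, also called 0 of the 7. Of all its genes it called 1.9% on average, 1.1% for the interaction and in MPP2, 0.184% in MPP3, 0.122% in each of MPP4, CMP and MEP, and 0% in HSC. The average that edgeR gives for the members depends on its prior count, because each member had at least 1 group with all 3 libraries at 0. The unadjusted edgeR p on average was 0.9998 or 0.9999 for every member but S100a9 (0.1495). These values stood beside log2 differences from -1.53 (Retnlg) to -3.65 (Lcn2). With such groups at 0, the edgeR test of the average cannot decide whether these members differ. At an unadjusted p under 0.05, limma picked 0 of the 7 in HSC and MPP2, 6 in MPP3, 3 in MPP4, 1 in CMP, 2 in MEP and 7 on average. Of all genes it picked 16.1% in MPP3, 7.77% in MPP2, 7.45% in MPP4, 6.49% in HSC, 5.28% in MEP, 3.72% in CMP and 10.7% on average. edgeR picked 5 in MPP4, 4 in MPP3, 3 in MPP2, 1 in MEP and 0 in HSC and in CMP. It also picked 0 on average, where its test cannot decide because of the groups at 0. Its shares of all genes were 8.02% in MPP4, 11.4% in MPP3, 15.7% in MPP2, 5.57% in MEP, 6.18% in HSC, 2.57% in CMP and 15.1% on average. For the interaction limma picked 0 of the 7 (8.74% of all genes) and edgeR 1 (9.37%).

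Averaged over the 6 populations, S100a9 differed by -2.33 on the log2(value + 1) scale (heterozygous minus wild type, SE 0.59, limma adjusted p = 0.143). The other differences were -1.86 for S100a8 (SE 0.60), -1.72 for Camp (SE 0.52), -1.35 for Ngp (SE 0.52), -1.26 for Ltf (SE 0.47), -1.05 for Lcn2 (SE 0.48) and -0.96 for Retnlg (SE 0.32), with limma adjusted p between 0.194 for Camp and 0.419 for Lcn2. All 7 differences were below 0, as were 32.7% of all genes, and their median was -1.35 against 0.12 over all genes. The 7 genes were chosen by their levels in these same libraries and moved together. Their shared sign and their unadjusted picks are therefore a description, not 7 separate results. Whether S100a9 passed depended on single libraries. It passed limma's test without wild-type MPP2 replicate 3 (adjusted p = 0.0466), wild-type MPP4 replicate 1 (0.0297), wild-type MEP replicate 1 (0.0136) or heterozygous MEP replicate 3 (-2.75, 0.00491). These were 4 of its 42 alternatives, whose adjusted p ran from 0.00491 to 0.536. Each left out a library that went against the difference. S100a9 stood at 0, 0 and 70.4 CPM in those wild-type libraries and at 6144 CPM in the heterozygous one. Camp passed in 1 of 42, without heterozygous MEP replicate 3, its highest heterozygous library (-2.09, limma adjusted p = 0.035, range 0.035 to 1).

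**Figure D5:**
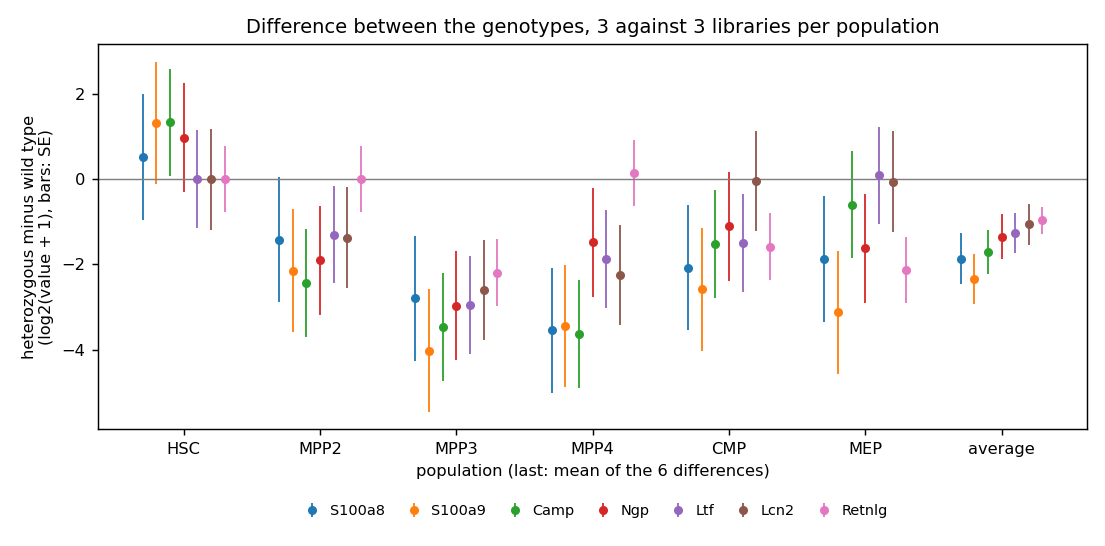
Difference between the genotypes for each of the 7 genes. The y axis is heterozygous minus wild type on the log2(value + 1) scale, the x axis is the population and, last, the mean of the 6 differences, points are limma estimates from 3 against 3 libraries and bars are standard errors. Most points lie below 0 outside HSC, the lowest being S100a9 in MPP3 at -4.02, and none passed the adjusted threshold.

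By population, the differences were furthest from 0 in MPP3 and MPP4. In MPP3 the 7 genes had a median difference of -2.95, against 0.56 over all genes, with S100a9 at -4.02 (SE 1.44, limma adjusted p = 0.157), Camp at -3.46 (SE 1.27), Ltf at -2.95 (SE 1.14) and Retnlg at -2.19 (SE 0.78). The CPM of the genotypes did not overlap for 4 of the 7 genes in MPP3, S100a8, S100a9, Camp and Ltf, all higher in the wild type. That held for 1.8% of all genes (116 of 6444), while 1394 genes did not overlap with the heterozygotes higher. On the deposited scale it held for 3 of them, without S100a8, and for 1.18% of all genes, with 1465 genes higher in the heterozygotes. In wild-type replicate 2 the CPM rested on 1 count each of Camp and Ltf and 4 of S100a8. Their counting intervals (9.16 to 2014 CPM for Camp and for Ltf, 394 to 3701 for S100a8) reached those of the heterozygotes. For these 3 the gap is therefore not detectable beyond counting error. Wild-type MPP3 replicates 1 and 2 held 7304 and 2764 counts in all and 0 of Kit, which allows up to 411 and 1085 CPM. The 15 monocyte and macrophage genes summed to 8215, 1447 and 768 CPM in wild-type MPP3 against 1021, 275 and 377 CPM in the heterozygotes. The part of these in the result was not tested. In MPP4 the median was -2.25, against 0.17 over all genes, and Camp alone did not overlap (3.88% of all genes), which is not detectable beyond counting error, since wild-type replicate 1 held 1 count of Camp (26.1 CPM) and the 0s of the heterozygotes allow up to 73.2 CPM. Those MPP4 differences rest on wild-type replicate 3, the library without MPP4 markers: without it S100a8 moved from -3.54 to -0.83 and S100a9 from -3.44 to -0.83.

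In MPP2, CMP and MEP the medians were -1.42, -1.51 and -1.62, against 0.21, 0.04 and 0.09 over all genes. In MPP2, leaving out wild-type replicate 1 took S100a8 from -1.42 to 0.71. In MEP the values were spread widely. S100a9 differed by -3.12 (SE 1.44), and by -1.31 without heterozygous replicate 1, -5.65 without heterozygous replicate 3 and -1.34 in edgeR. Retnlg differed by -2.14 (SE 0.78), and leaving out wild-type replicate 2 took Retnlg to -0.34. Ltf differed by 0.09 (SE 1.14) and Lcn2 by -0.06 (SE 1.18). In CMP, S100a9 differed by -2.59 (SE 1.44, limma adjusted p = 1). When the 6 CMP libraries were fitted alone the difference was the same and S100a9 passed (limma adjusted p = 6.77e-05, range over 43 alternatives 6.77e-05 to 1), although the CPM of the genotypes overlapped. In that fit limma, which draws each gene's spread towards that of genes of like level, used an SD of 0.53 for S100a9, whose own residual SD was 1.56. In HSC the 4 genes with a count had differences above 0, from 0.52 for S100a8 to 1.33 for Camp, on 12 heterozygous counts and 1 wild-type count in sum.

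Related genes gave no call either. In the wider neutrophil list 10 genes were tested and 0 were called in any population or on average, with a median average difference of -0.50. The 6 primary granule genes tested gave 0 calls and a median of 0.13, the 6 other S100 genes 0 calls and -0.07, and the 3 transcription factors tested 0 calls and 0.30. 1100001G20Rik differed by -1.12 on average (SE 0.34, limma adjusted p = 0.199), and the other 9 genes most like the 7 were not called. Over all marker lists only Beta-s in HSC (-7.84, SE 1.32, limma adjusted p = 0.0011) and Cd34 in MEP (3.71, SE 0.72, limma adjusted p = 0.0116) were called. The MEP gate excluded cells with CD34 protein, and Cd34 had 0 counts in the 3 wild-type MEP libraries and 16, 10 and 19 in the heterozygous ones.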

How the data were processed

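The 7 genes, the gene lists and the rules were chosen with earlier results of these data known. The authors deposited 1 signal value per gene and library. Within a library 100% of values were whole multiples of the smallest one, to 0.01 counts, so each table holds counts scaled by a single factor, and these counts were recovered. Alignment was with BWA 0.6.2-r126 to mm10, per the submitters' processing notes. Counter, annotation, use of strand and collapse of molecular identifiers: not given in the sources used here. Among wild-type MEP values 92 lines lack a name, so row names were taken by position from wild-type HSC. The tables' 92 spike-in transcripts were kept out of totals and tests.

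CPM are counts over the total of all 23538 genes. The main test was limma 3.58.1 (R 4.3.3, variance trend) on log2(value + 1) over all 36 libraries, 1 coefficient per population and genotype, for 6444 genes with a mean of at least 1, adjusted by Benjamini-Hochberg at 0.05 over all of them. Fold changes on this scale understate changes of low genes. Shares, intervals and correlations were computed in Python 3.11.15 with numpy 2.4.6, pandas 2.3.3 and scipy 1.17.1, and plots with matplotlib 3.10.9. Scripts were tested on simulated counts. Alternatives were edgeR 4.0.16 on recovered counts (TMM or RLE scaling, 1633 genes), counts rescaled to the median total, a pseudocount of 0.1, no filter, leaving out the 6 libraries under 15000 counts or each library in turn, and fits of 1 population alone. Intervals are exact Poisson or Clopper-Pearson at 95%, and 3 counts bound a value of 0. Genes named are the 7, the 10 most like their sum, up to 4 per marker list by counts, and list genes called. Chil3, Wfdc21, Spi1, Adgre1, Jchain and Hbb-bs were matched through older symbols.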

Additional observations from a re-analysis of the deposited data

How the results depend on the processing

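Summed levels rested on single libraries: leaving out 1 took the mean from 11055 to 91.7 CPM in wild-type MPP4, from 6306 to 166 in wild-type MPP2 and from 9346 to 204 in heterozygous MEP. With 3 libraries such a shift always stays within 1 SD, so that measure says nothing of stability. Among the 10 genes most like the sum of the 7, 6 remained with all 36 libraries. For single genes, edgeR turned the MEP difference of Camp (1.08 with TMM, 1.06 with RLE scaling), Ngp (0.0645 and 0.0458) and Lcn2 (0.67 and 0.65) above 0, and a pseudocount of 0.1 turned that of Lcn2 in CMP (0.95). Leaving out 1 library gave ranges of -2.48 to 0.71 for S100a8 in MPP2, -2.83 to 0.55 for Camp in MEP, -2.37 to 0.49 for Ngp in CMP, -2.17 to 2.25 for Ltf in MEP, -1.19 to 1.46 for Lcn2 in CMP and -1.82 to 1.38 for Lcn2 in MEP. The cause was not tested.

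Counts of genes called, over all genes, moved more. In HSC (1 gene) edgeR called 0 with either scaling and no filter gave 2. In MPP2 (5 genes) the counts were 18 (TMM), 25 (RLE), 25 (rescaled totals), 16 (pseudocount of 0.1), 1 (no filter) and 27 (6 libraries alone). In MPP3 (20 genes) they were 3, 2, 32, 235, 7 and 0 in the same order. In MPP4 (2 genes) rescaled totals, the pseudocount and the 6 libraries alone gave 0, no filter 9 and leaving out the shallow libraries 33. In CMP (2 genes) rescaled totals and the pseudocount gave 0, no filter 32, leaving out the shallow libraries 4 and the 6 libraries alone 14. In MEP (2 genes) rescaled totals and the pseudocount gave 0, no filter 53 and leaving out the shallow libraries 5. On average (5 genes) TMM gave 31, RLE 25 and leaving out the shallow libraries 2. For the interaction (2 genes) TMM gave 18, RLE 14, rescaled totals and the pseudocount 1, no filter 29 and leaving out the shallow libraries 20. Leaving out 1 library in turn gave 1 to 10 genes in HSC, 0 to 24 in MPP2, 1 to 399 in MPP3, 0 to 2 in MPP4, 0 to 4 in CMP and MEP, 4 to 43 on average and 1 to 27 for the interaction. The 399 came without wild-type MPP3 replicate 3, and the 24 and 43 without heterozygous HSC replicate 2, the shallowest library.

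The median of all genes in MPP3 was 0.56 in the main limma test and 0.68 with rescaled totals. In edgeR it was 0.27 (TMM) and -0.06 (RLE), over 1633 genes and on another log2 scale. These medians therefore do not isolate the effect of scaling, and its part in the differences of the 7 genes was not tested. Without the shallow libraries MPP2 has no wild-type library, so it gave no value and the average covered the other populations. In MPP3 wild-type replicate 3 alone then stands for its group, so no count of called genes is given for it. No paired analysis was possible because replicate numbers link no libraries across groups. Libraries of 1577 to 12339 counts cannot show a gene of a few CPM, and a missing count there says little.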
